A study of Homo sapiens with 3 samples.

Results

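The set described here holds 5 genes that position B cells in and around the germinal centre: S1PR2, GNA13, CXCR4, CXCR5 and TNFRSF14. Its intervals were chosen by location and not by any measured value, although earlier results of these data were known. Every interval that overlapped one of these gene bodies, extended by 20 kb on each side, was taken from both deposited lists on hg19. This gave 20 of 215598 CREBBP peaks and 19 of 18263 H3K27ac regions. The material was the human cell line SC1, whose labelled type is DLBCL, a diffuse large B-cell lymphoma, cultured in RPMI1640 with 10% serum. Chromatin immunoprecipitation with sequencing (ChIP-seq) was done with an antibody to CREBBP and, in a separate sample, with an antibody to H3K27ac, the acetylated form of lysine 27 in histone H3. The remaining sample was input without antibody, which was not analysed here. No genotype, treatment or time is given in the labels, although interval names in the files contain DMSO and rep2, words that no label explains. With 1 sample per group there is no replicate error, and no difference was tested. The lists hold no expression values, and no other marker gene was placed on hg19, so the labelled cell type was not checked.

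Germinal centres are the sites in lymphoid follicles where B cells mutate their antibody genes and are selected. CXCR5, the receptor for the chemokine CXCL13, draws B cells into follicles and the light zone, and CXCR4, the receptor for CXCL12, draws them into the dark zone. S1PR2, a receptor for sphingosine-1-phosphate, keeps B cells near the follicle centre by signalling through GNA13, the alpha subunit of a G protein that restrains migration. TNFRSF14, also known as HVEM, is a surface receptor that binds BTLA, an inhibitory receptor on lymphocytes. GNA13, S1PR2 and TNFRSF14 are recurrently mutated in germinal-centre lymphomas. CREBBP is a lysine acetyltransferase that acetylates histone H3 at lysine 27, a mark of active promoters and enhancers.

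All 5 genes had H3K27ac within 1 kb of the start site, and 4 of them had a CREBBP peak within that distance. The share of all genes with either was not analysed here, so these counts have no background to be read against. The genes differed more in how far the mark extended. H3K27ac covered 42.1% of the 43.8 kb CXCR4 window, 24.8% of the 52.5 kb CXCR5 window and 19.6% of the 87.5 kb GNA13 window. Cover was smaller at the remaining genes, at 8.33% of the 47.5 kb TNFRSF14 window and 4.31% of the 49.9 kb S1PR2 window. Over the 281 kb of the 5 windows together it was 19.5%, where the list as a whole covers 1.12% of the extent of the chromosomes.

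The chromosomes were cut into windows of each gene's length to give a scale for these shares. Among windows with any H3K27ac, the median cover was between 2.40% and 3.97% at the 5 lengths. Cover as high as that of CXCR4 was found in 0.557% of such windows, and cover as high as that of GNA13 and CXCR5 in 1.83% and 2.16%. For TNFRSF14 the share was 19.0% and for S1PR2 it was 40.6%. CXCR4, GNA13 and CXCR5 therefore lay in the upper few percent of marked windows, and S1PR2 lay close to the middle. Cover counts every listed region alike, whatever its strength. All regions of CXCR4 and CXCR5 were below the list's median −log10 q of 33.6, with highest values of 20.4 and 31.7. The windows include stretches without genes, and these shares are a description and not a test.

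**Figure D1:**
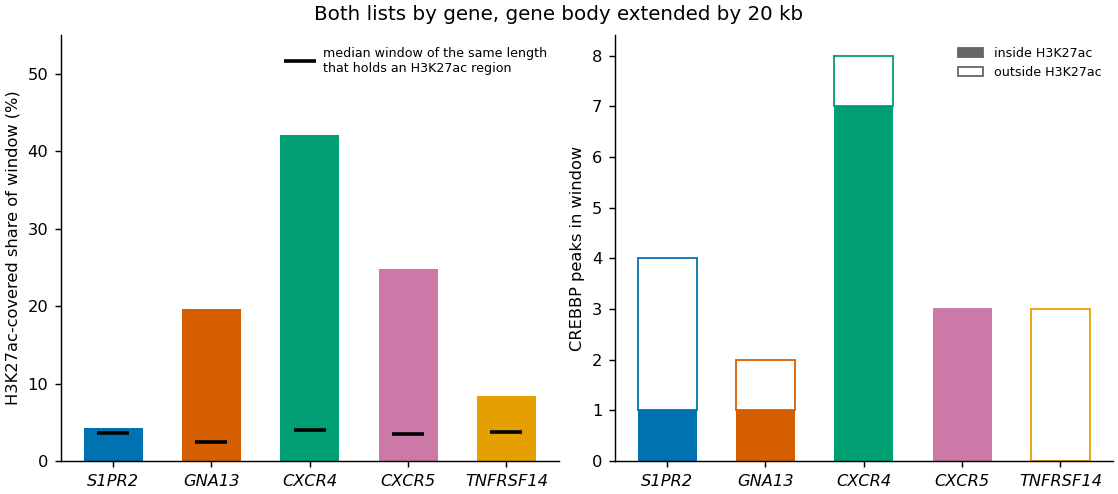
H3K27ac cover (left, percent of each window) and number of CREBBP peaks (right) at each gene, where a window is the gene body extended by 20 kb and black dashes give the median cover of marked windows of the same length. CXCR4 had the highest cover, 42.1%, and the most CREBBP peaks, 8, of which 7 lay inside H3K27ac, while the 3 peaks at TNFRSF14 lay outside.

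CREBBP peaks numbered 8 at CXCR4, 4 at S1PR2, 3 at CXCR5, 3 at TNFRSF14 and 2 at GNA13. Only the CXCR4 count was high for its length, since 7.88% of marked windows held as many. Marked windows of its length had a median H3K27ac cover of 3.97%, so the count was not compared at like cover. The GNA13 count of 2 was low for its length, since 97.6% of marked windows held as many or more. For the other 3 genes the share lay between 58.1% and 76.6%. Of the 20 peaks, 12 overlapped an H3K27ac region, 60.0% (exact Clopper-Pearson 95% interval 36.1 to 80.9%, counting error only), against 5.06% of the whole list. The 2 shares come from sequence with different cover of the mark, 19.5% in the windows and 1.12% overall. Per kb of H3K27ac the windows held 0.219 CREBBP peaks and the whole list 0.319. By gene it was 0.465 at S1PR2, 0.380 at CXCR4, 0.231 at CXCR5, 0.0583 at GNA13 and 0 at TNFRSF14. The S1PR2 and GNA13 values rest on 1 peak each. Per kb of unmarked sequence the values were 0.0353 in the windows and 0.0682 in the whole list.

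The start sites themselves were marked in a graded way. At GNA13 a region of 2938 bp with a fold enrichment of 15.3 lay over the start, and fold here is the ratio of ChIP signal to expected background as the authors' peak caller gave it. Its fold was above that of 95.1% of all H3K27ac regions. The start site regions of CXCR5, S1PR2 and CXCR4 had folds of 4.06, 3.79 and 3.18, which exceeded 39.0%, 35.4% and 26.1% of the list. At TNFRSF14 the region was 493 bp wide with a fold of 2.23, above 10.0% of the list, and began 28 bp inside the gene. GNA13 thus had a start site region with a fold in the top 5% of the list, and the other 4 were below the list's median fold of 4.92. The list holds all H3K27ac regions, and start site regions of other genes were not set apart. Folds are taken as means over each region, and these regions were 493 to 4797 bp wide.

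CREBBP peaks stood within 1 kb of 4 start sites, at different offsets. The peak of GNA13 lay 27 to 443 bp before the start with 14 fragments at the summit over a background of 3.90, a fold of 3.06 and a q of 0.0661. At CXCR5 the peak spanned the start, with 23 fragments over 11.1 and a fold of 1.99. The CXCR4 peak lay 544 to 1109 bp inside the gene, with 27 fragments over 10.2, a fold of 2.51 and a q of 0.0209. At TNFRSF14 a peak of fold 1.95 lay 532 to 971 bp inside the gene. S1PR2 had no CREBBP peak within 1 kb, and its nearest began 2107 bp inside the gene. Of the 5 start sites, only that of CXCR4 had, within 1 kb, a CREBBP peak whose q was 0.05 or less.

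**Figure D2:**
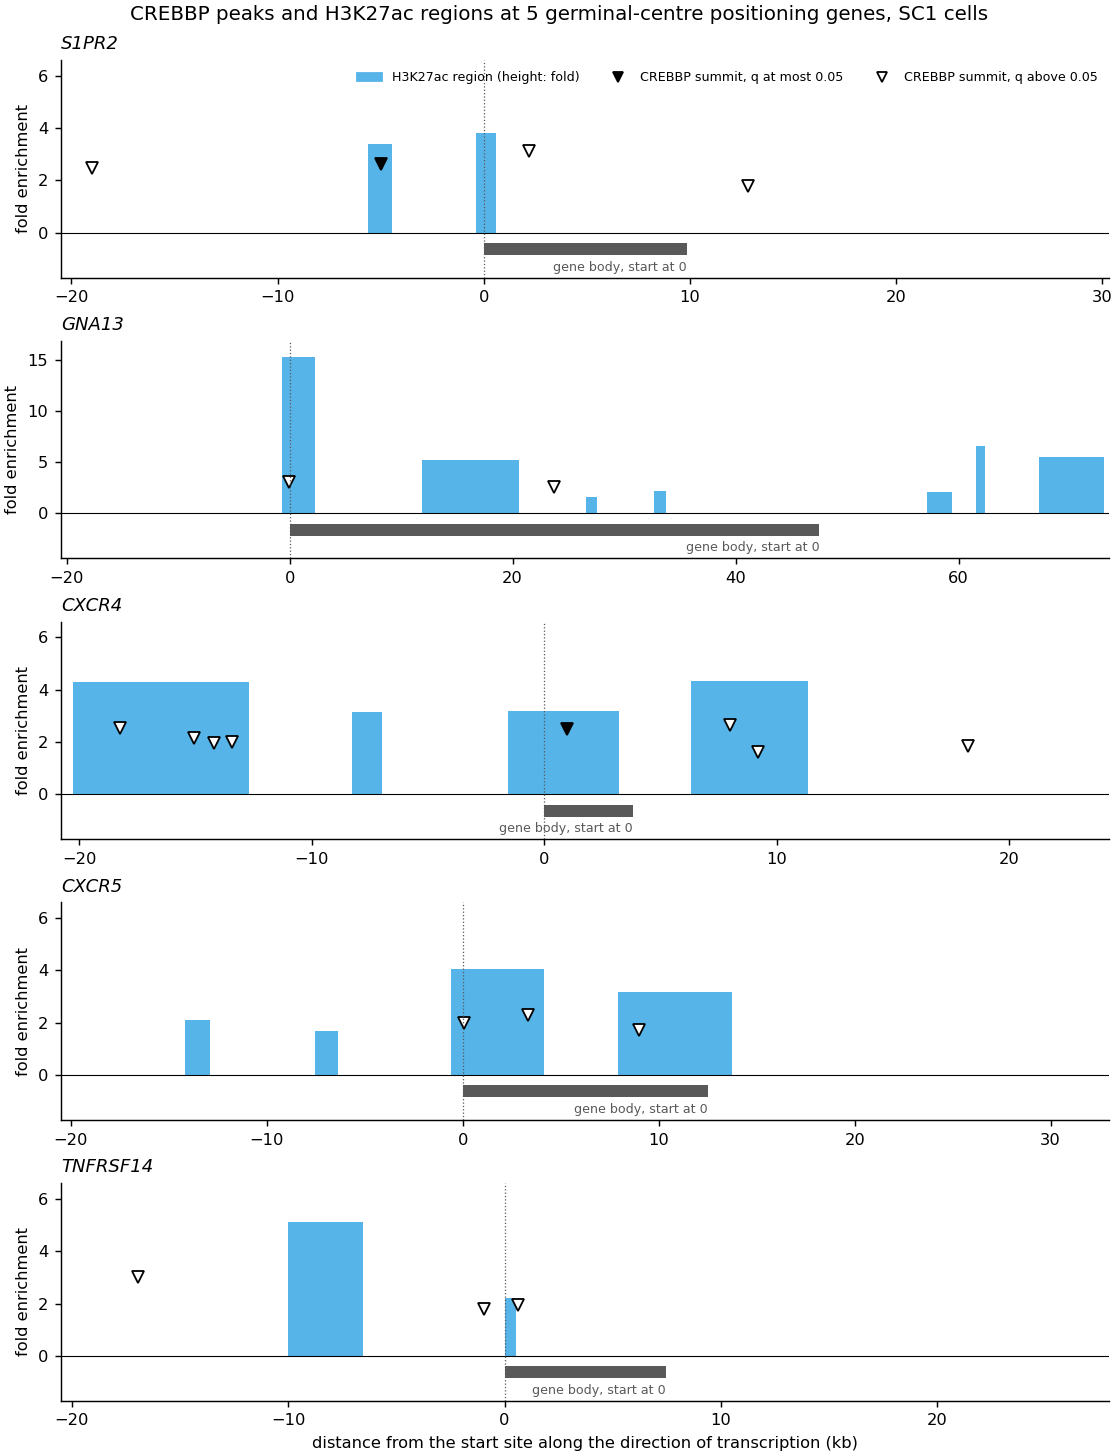
Position and fold enrichment of H3K27ac regions (blue bars) and CREBBP summits (triangles, filled where q is at most 0.05) along the direction of transcription, in kb from the start site, with the gene body in grey and a separate vertical scale for GNA13. H3K27ac reached a fold of 15.3 over the GNA13 start, and the 2 filled triangles stand 4.97 kb before the S1PR2 start and 0.975 kb inside CXCR4.

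The promoter sequences are shown because H3K27ac regions lay over or next to the hg19 start sites and because the sequences show how CpG content varies among the genes. They come from RefSeq (GRCh38.p14), run 5′ to 3′ on the strand of the gene from 250 bases before the start, and have each CpG in capitals. The positions are on GRCh38.p14 and were not set base by base against the hg19 intervals.
S1PR2, chr19:10231282-10231581, minus strand: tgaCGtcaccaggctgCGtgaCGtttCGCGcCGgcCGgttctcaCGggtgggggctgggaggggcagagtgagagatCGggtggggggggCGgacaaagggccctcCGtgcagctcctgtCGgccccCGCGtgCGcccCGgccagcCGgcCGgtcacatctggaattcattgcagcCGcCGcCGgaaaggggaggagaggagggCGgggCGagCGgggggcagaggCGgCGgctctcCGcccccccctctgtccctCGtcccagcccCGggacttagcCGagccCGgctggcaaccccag
GNA13, chr17:65056691-65056990, minus strand: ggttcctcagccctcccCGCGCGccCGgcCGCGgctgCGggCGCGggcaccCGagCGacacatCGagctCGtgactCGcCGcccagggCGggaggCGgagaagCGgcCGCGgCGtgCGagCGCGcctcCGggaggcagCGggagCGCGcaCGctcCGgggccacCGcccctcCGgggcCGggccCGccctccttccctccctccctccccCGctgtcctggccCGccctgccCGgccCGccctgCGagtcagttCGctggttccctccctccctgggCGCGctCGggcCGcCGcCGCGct
CXCR4, chr2:136118100-136118399, minus strand: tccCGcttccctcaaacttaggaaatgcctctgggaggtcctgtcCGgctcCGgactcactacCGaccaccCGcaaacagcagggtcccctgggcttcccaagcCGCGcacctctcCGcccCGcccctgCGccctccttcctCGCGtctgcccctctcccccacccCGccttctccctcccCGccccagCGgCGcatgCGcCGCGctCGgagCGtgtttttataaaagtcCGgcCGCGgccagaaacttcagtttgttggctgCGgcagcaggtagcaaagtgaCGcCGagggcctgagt
TNFRSF14, chr1:2556121-2556420, plus strand: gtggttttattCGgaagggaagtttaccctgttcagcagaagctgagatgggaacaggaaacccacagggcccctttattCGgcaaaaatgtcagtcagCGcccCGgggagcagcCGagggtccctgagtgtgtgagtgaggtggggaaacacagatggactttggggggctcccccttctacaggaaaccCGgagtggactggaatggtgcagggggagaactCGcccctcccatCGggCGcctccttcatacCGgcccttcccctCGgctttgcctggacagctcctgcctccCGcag
The GNA13 window had 47 CpGs in these 300 bases, more than 97.6% of the 34789 promoter windows in the table. The S1PR2, CXCR4 and TNFRSF14 windows had 31, 27 and 12, beside a median of 14. Entries further inside a gene, which are not shown, had 19 CpGs in GNA13, 14 and 9 in CXCR4, and 9 in CXCR5, for which the table holds no other. CpG count was not tested against H3K27ac.

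A cyclic AMP response element, TGACGTCA, the site of the CREB factor after which CREBBP is named, was found at the far end of the S1PR2 window, 250 bases before the start. These letters occur in 1.84% of all promoter windows. Its first 5 bases, TGACG, occur again in S1PR2 at 232 bases before the start and in CXCR4 at 31 bases after it, and are present in 24.5% of windows. The TATA letters TATAAA stood 30 bases before the CXCR4 start, and again 32 bases before it on the other strand, overlapping the first, beside 11.6% of windows. The octamer ATGCAAAT, the FOXO letters GTAAACA, the MEF2 letters (CTA and TAG with 4 bases between) and the ETS letters CCGGAAG were in none of the 8 windows that the table holds for the 5 genes. The NF-kB letters (GGG and CC with 5 bases between) were in 6 of these 8 windows and in 58.7% of all, so they separate little. Both strands were searched, and a match is a description of letters, not a bound site.

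S1PR2, on chromosome 19 from 10332109 to 10341962 on the minus strand, had 3 of its 4 CREBBP peaks outside the mark. Most CREBBP peaks of the list also lay outside, since 5.06% of them overlapped H3K27ac. An H3K27ac region of 974 bp spanned the start from 379 bp before it to 594 bp inside the gene (10341368 to 10342341) and held no CREBBP peak. A second of 1175 bp and fold 3.39 lay 4.44 to 5.61 kb before the start (10346402 to 10347576). This upstream region held the CREBBP peak with the lowest q of all 20, 0.012, whose summit had 26 fragments over a background of 9.24 and a fold of 2.64. The largest CREBBP fold of the 20 peaks, 3.12, was also at S1PR2, inside the gene at 10339427 to 10339855. It had 13 fragments over 3.48, stood 1512 bp from the nearest H3K27ac region and had a q of 0.0768. A peak of fold 2.47 lay 19.0 kb before the start, and 1314 bp beyond it the mark resumed outside the window. MRPL4 is the next gene on that side in GRCh38.p14. The fourth peak, of 4 fragments and fold 1.78, lay beyond the end of the gene. The gene for a microRNA, MIR4322, overlaps S1PR2 in the same annotation.

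GNA13, on chromosome 17 from 63005407 to 63052920 on the minus strand, had the most H3K27ac regions, 7, and the fewest CREBBP peaks. The start site region ran from 63050638 to 63053575 and held the start site CREBBP peak. Inside the gene, an H3K27ac region of 8704 bp from 63032362 to 63041065 had a fold of 5.24 and lay 11.9 to 20.6 kb after the start. It was wider than 98.8% of the list and held no CREBBP peak. Of the 211 regions at least as wide, 12 held none, 5.69%. The nearest CREBBP peak stood 2804 bp away, with 5 fragments over the commonest background, 1.30, between this region and a weak one.

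The remaining 5 marks of GNA13 lay in the gene body and beyond its end. The gene body held regions of 1066 bp with a fold of 1.57 (63025316 to 63026381) and of 1137 bp with a fold of 2.19 (63019132 to 63020268). Beyond the end of the gene lay regions of 2206 bp with a fold of 2.06 (62993505 to 62995710) and of 800 bp with a fold of 6.54 (62990534 to 62991333). A region of 5836 bp with a fold of 5.55 (62979886 to 62985721) reached 315 bp into the window. It held 3 CREBBP peaks, all outside the window, of which 1 had a q of at most 0.05. None of these 5 regions held a CREBBP peak within the window, so the CREBBP of GNA13 itself rested on the start site peak and the single peak between regions.

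CXCR4, a short gene on chromosome 2 from 136871919 to 136875725 on the minus strand, lay within a run of 4 H3K27ac regions, 3 of which held CREBBP. The region over the start was 4797 bp wide (136872498 to 136877294), reached from 1.57 kb before the start to 3.23 kb after it, and so covered most of the gene. Its CREBBP peak, at 136874616 to 136875181, was 1 of the 2 with q of at most 0.05. Beyond the gene a region of 5053 bp and fold 4.34 (136864366 to 136869418) held 2 CREBBP peaks, with folds of 1.60 and 2.63. The peak of fold 1.60, with 8 fragments over 4.62, was the lowest fold of all 20.

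Upstream of CXCR4 the mark formed its widest region there. It was 7588 bp wide (136888429 to 136896016), 12.7 to 20.3 kb before the start, with a fold of 4.31, and the last 291 bp lay outside the window. It held 4 CREBBP peaks, with summits 13.4, 14.2, 15.1 and 18.3 kb before the start. They had 12, 21, 17 and 18 fragments and folds of 1.99, 1.97, 2.15 and 2.54, and none had a q of at most 0.05. Holding 4 or more CREBBP peaks was seen in 0.471% of all H3K27ac regions and in 68 of the 292 regions at least this wide, 23.3% (exact interval 18.6 to 28.6%). Among regions of that width such a count was thus not rare. The peak farthest before the start was 889 bp wide, wider than 97.0% of the CREBBP list. The fourth region, 1294 bp with a fold of 3.16 (136882691 to 136883984), lay between these and held no CREBBP peak. In GRCh38.p14 no annotated gene overlaps CXCR4, and the nearest neighbours are a non-coding RNA gene and a pseudogene.

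CXCR5, on chromosome 11 from 118754475 to 118766980 on the plus strand, was marked at both ends of the gene, and each of its 3 CREBBP peaks lay in the mark. The start site region was 4750 bp wide (118753895 to 118758644) and held 2 CREBBP peaks, at the start and with a summit 3.33 kb into the gene. The inner peak was 825 bp wide, with 13 fragments over 5.06 and a fold of 2.31. A region of 5798 bp with a fold of 3.17 (118762417 to 118768214) ran over the end of the gene and held a peak of 15 fragments and fold 1.72. BCL9L and a non-coding RNA gene, LOC124902767, overlap CXCR5 in GRCh38.p14, and where they do was not set against these intervals. The marks over the gene therefore cannot be given to CXCR5 alone. Before the start stood 2 weaker regions of 1250 and 1200 bp, with folds of 2.09 and 1.68 (118740319 to 118741568 and 118746914 to 118748113), and neither held CREBBP. No CREBBP peak of CXCR5 reached a q of 0.05, and the lowest fold among its marked regions exceeded only 2.51% of the list.

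TNFRSF14, on chromosome 1 from 2487805 to 2495267 on the plus strand, had its main mark away from the gene. Its 3 CREBBP peaks lay outside the mark, at gaps from 11 bp to 6.71 kb. A region of 3461 bp with a fold of 5.12 (2477806 to 2481266) lay 6.54 to 10.0 kb before the start and held no CREBBP peak. Of the 1853 regions at least as wide, 15.5% held none. The start site region ended 11 bp before the CREBBP peak inside the gene began (2488337 to 2488776), which had 9 fragments over 4.12. A peak of fold 1.78, also with 9 fragments, had its summit 0.965 kb before the start. The third, with a fold of 3.03 and 10 fragments over 2.63, lay 17.0 kb before the start and 6.71 kb from the nearest mark. TNFRSF14-AS1, a non-coding RNA gene, overlaps TNFRSF14 in GRCh38.p14, and HES5 is the next gene before it. None of the 3 peaks reached a q of 0.05 and none overlapped H3K27ac, beside 1.81% and 5.06% of the list.

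Compared with the whole H3K27ac list, the 19 regions had a higher median width and a lower median fold. Their widths ran from 493 to 8704 bp with a median of 2206 bp, against a median of 1423 bp in the list, and 10 of the 19 were wider than that. Their folds ran from 1.57 to 15.3 with a median of 3.39, against 4.92. Below the list's median fold lay 14 of the 19, and 5 of the 19 were in the upper 50% of the list by q. Values are means over each region, taken as the format defines them, so a wide region that includes weak stretches can have a low fold. The 8 regions that held a CREBBP peak, 42.1% (exact interval 20.3 to 66.5%), stood beside 49.0% of the list, so the share was no higher. The 2 shares are not at like width, since the 19 had a higher median width and wide regions of the list seldom lacked a peak. Of list regions at least 2206 bp wide, 25.7% held none, and of those at least 4750 bp wide, 10.9%. In 1 of the 8 regions, at the edge of the GNA13 window, the CREBBP peaks lay outside the window. The 8 had a median width of 4925 bp and a median fold of 4.18, and the 11 without CREBBP had 1200 bp and 2.23. The list was not split in this way here, so this difference is not shown to be particular to these genes.

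**Figure D3:**
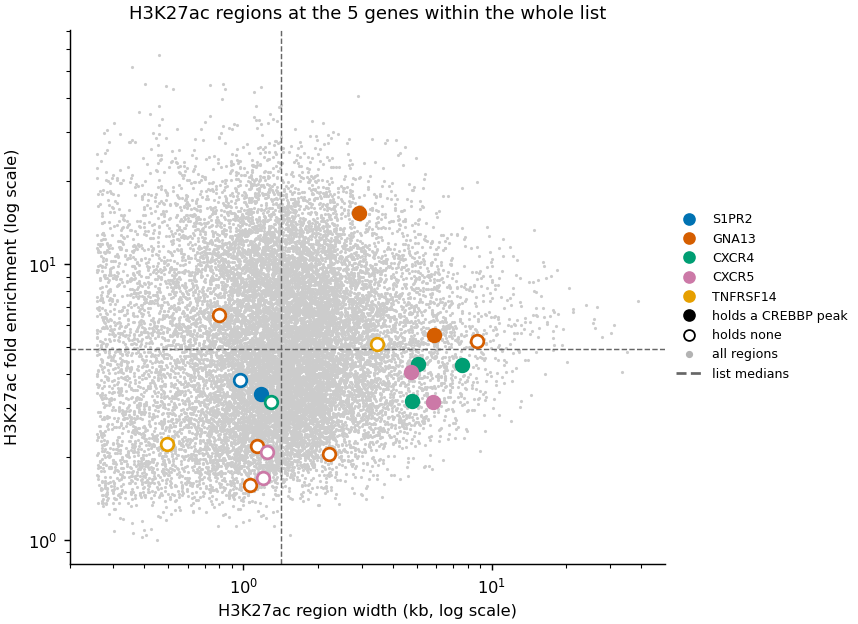
Width (kb, log scale) and fold enrichment (log scale) of the 19 H3K27ac regions, coloured by gene and filled where they hold a CREBBP peak, over all 18263 regions (grey), with dashed lines at the list medians. Of the 19, 14 lie below the median fold, and the GNA13 start site region stands apart at 15.3.

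The CREBBP peaks at these genes had more fragments than most of the list, on a higher background. The 20 peaks had 4 to 27 fragments at the summit with a median of 13, against a median of 5 in the list. Their background had a median of 4.65, against 1.30. Fold, which divides the numbers, had a median of 2.23 in the 20 peaks and 2.17 in the list. Those inside H3K27ac had a median of 16 fragments over 6.93, and all peaks of the list inside H3K27ac also had 16, over 6.87. The 8 outside had a median of 9 fragments over 3.13, and all peaks of the list outside had 5 over 1.30. The medians were thus close to those of the list inside the mark and higher than those of the list outside it, with no test of either.

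Few of these peaks were strong by the authors' own q. The peaks with q of 0.05 or less were 2 of the 20, 10.0% (exact interval 1.23 to 31.7%), against 1.81% of the list. Both lay inside H3K27ac. Shares by q are not like for like here, since 60% of the 20 peaks and 5.06% of the list lay inside H3K27ac. For the list's peaks inside H3K27ac alone, the share with a q of 0.05 or less was not analysed here. Just inside this threshold stood the CXCR4 gene body peak, with a −log10 q of 1.68, and just outside stood the GNA13 start site peak, with 1.18, and the S1PR2 gene body peak, with 1.11. A −log10 q of 0 was listed for 8 of the 20 peaks, 40.0%, and for 80.7% of the list. A CREBBP peak with a q of 0.05 or less lay in 3 of the 19 H3K27ac regions, against 11.4% of the list. The region at the edge of the GNA13 window is among the 3. All 19 H3K27ac regions had a q of at most 0.05, as did 99.3% of the list.

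**Figure D4:**
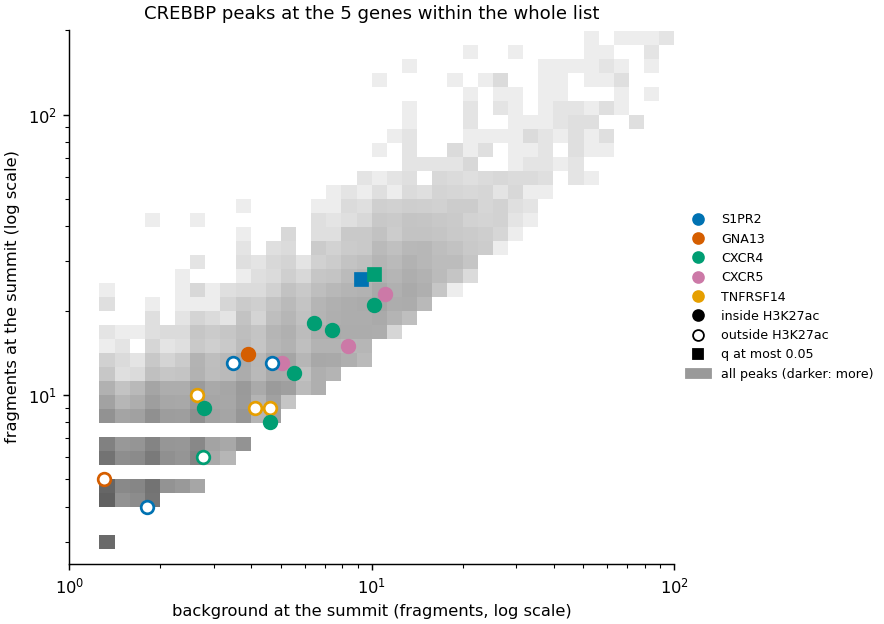
Fragments at the summit against the background there, both solved from the deposited fold and p on log scales, for the 20 CREBBP peaks (coloured by gene, filled inside H3K27ac, squares where q is at most 0.05) over all peaks within the axes (grey, darker where more). The squares, at S1PR2 and CXCR4, have 26 and 27 fragments, and the open symbols have 13 or fewer.

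Joining H3K27ac regions within 12.5 kb of each other placed 3 of the 5 genes in the widest domains of the list. Wide domains were the top 5% of 13232 by covered length, with at least 8.02 kb covered. This is a share of domains and not of genes. The share of all genes in wide domains was not analysed here, so the count of 3 has no background to be read against. At CXCR4 all 4 regions joined into a domain of 31.7 kb, of which 18.7 kb was covered, rank 95, with 7 CREBBP peaks in its span. The GNA13 start site and gene body formed a domain of 34.4 kb with 13.8 kb covered, rank 221, and 2 CREBBP peaks in its span, of which 1 lay in a marked region. At CXCR5 the domain spanned 27.9 kb with 13.0 kb covered, rank 258, and held 3 peaks in its span. The domains of TNFRSF14, with 3.95 kb covered, and S1PR2, with 2.15 kb, ranked 1967 and 4512 and were not wide. The joined domains that hold CXCR4 and GNA13 thus held 7 and 2 CREBBP peaks over spans of 31.7 and 34.4 kb.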

How the data were processed

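ChIP-seq of SC1 cells gave 1 CREBBP, 1 H3K27ac and 1 input sample, of which 2 had a peak list. The submitters' processing notes name fastp, Bowtie2, STAR, MACS2 and the build hg19, with roles, versions, settings, control library and pooling not given in the sources used here. The authors deposited, for each interval, a fold (ratio of ChIP signal to expected background), a −log10 p-value and −log10 q-value and a score. In all 215598 CREBBP peaks the deposited score equalled the whole part of 10 times −log10 p, and the smallest −log10 p was 1.30, so the CREBBP list reaches a p of 0.05 with no limit on q. H3K27ac values are taken as means over each region. Deposited summit positions gave distances.

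Intervals off chromosomes 1 to 22 and X (128 in the CREBBP list, 17 in the other) were dropped. Gene bodies are on hg19, and strands, promoters and neighbouring genes are from RefSeq (GRCh38.p14), where all 5 symbols matched. A start site is the 5′ end of the gene body. Positions count from 1. Overlap means at least 1 bp. Every H3K27ac region and every CREBBP peak with q of at most 0.05, inside H3K27ac, of largest fold or nearest to a start is named. Fragments k and background b solve fold = (k + 1)/(b + 1) with p the upper Poisson tail. This matched −log10 p within 0.001 for 99.99% of peaks and is an inference, since the library depth is unknown. Shares carry exact Clopper-Pearson 95% intervals for counting error only. No paired or replicate test was possible. Members, lists and settings were chosen with earlier results of these data known. Further migration genes (P2RY8, ARHGEF1, RHOA, GPR183, CCR7, S1PR1, RGS1, RGS13, GGT5, BTLA, SWAP70 and CXCR3) were not analysed here, since no hg19 annotation was at hand. Python 3.11.15, numpy 2.4.6, pandas 2.3.3, scipy 1.17.1 and matplotlib 3.10.9 were used, and the overlap and fragment code was tested on simulated data. Alternatives changed the window, the thresholds, the overlap and the distance to the start.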

Additional observations from a re-analysis of the deposited data

How the results depend on the processing

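No paired analysis was possible because there was 1 sample per group. Values that scale with the window moved with it. With no extension, 10 kb and 50 kb in place of 20 kb, CREBBP peaks numbered 7, 13 and 44 (20 as reported), and H3K27ac cover was 32.3%, 23.8% and 14.7% (19.5% as reported). With no extension and with 50 kb, H3K27ac regions numbered 9 and 32 (19 as reported). CREBBP peaks inside them numbered 4 of 7 and 22 of 44 (12 of 20), and regions that held a CREBBP peak 4 of 9 and 15 of 32 (8 of 19). With CREBBP peaks of q at most 0.05, 2 peaks were left, both inside H3K27ac, 3 regions held one, and 1 start site had one within 1 kb (4 as reported). With H3K27ac regions in the upper 50% by q, 5 regions were left, none at CXCR4, CXCR5 or S1PR2, and these 5 covered 5.77%. They contained 1 CREBBP peak of the windows, 2 of them held a CREBBP peak, and 1 start site, that of GNA13, was marked. Over the start site itself stood 1 CREBBP peak, that of CXCR5. An overlap of 50% of the peak, or its summit alone, left 12 peaks and 8 regions. The median CREBBP peak of the list had 5 solved fragments at its summit, and the effect of depth was not tested.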

Other observations

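The following were noticed after the values were seen and were not tested. The 3 H3K27ac regions beyond the end of GNA13 belong to a joined domain from 62957601 to 62995710 that lies mostly outside the window. It has 7 regions and 22.3 kb covered, ranks 54 of 13232 and holds 6 CREBBP peaks in its span, 5 of them in marked regions. The domain over GNA13 itself holds 2, of which 1 is in a marked region. The CREBBP peak inside TNFRSF14 missed the start site H3K27ac region by 11 bp. A gap that small was seen at 26 of the 204695 CREBBP peaks that lie outside H3K27ac. This count takes the peak's own gap as its limit and includes peaks at any distance from the mark. It is therefore no measure of how unusual the peak is.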
